A study of Mus musculus with 9 samples.

Results

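The receptors for serotonin, dopamine, noradrenaline, acetylcholine, oxytocin and vasopressin were examined in bulk RNA sequencing of newborn mouse cortex. The members were taken by a rule on gene symbols, set with earlier results of these data known, and the gene table held 45 of them among its 24624 genes. They were 13 serotonin, 4 dopamine, 6 alpha-adrenergic, 3 beta-adrenergic and 5 muscarinic receptor genes, 7 nicotinic alpha subunits, 4 nicotinic beta subunits, and 3 receptors for oxytocin and vasopressin. *Drd1*, *Chrna9*, *Chrna10* and *Avpr2* were not analysed here.

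Cortices were collected at postnatal day 0 (P0) from 3 *Fezf2*+/+ mice, 4 *Fezf2*-/- mice and 2 *Fezf2*-/-; *Fezf2-EnR* mice, and each library came from both cortical hemispheres of 1 mouse. FEZF2 is a zinc-finger transcription factor of deep-layer projection neurons and their progenitors. The *Fezf2*- allele is a null allele in which the *PLAP* reporter is expressed from the endogenous *Fezf2* promoter. *Fezf2-EnR* is a BAC transgene in which the Engrailed repressor domain (EnR) is fused to the DNA-binding domain of FEZF2, and the mice that carried it here had no intact *Fezf2* allele. Parents were *Fezf2*+/- and *Fezf2*+/-; *Fezf2-EnR*, and the pups came from 3 litters. Litter m1 gave *Fezf2*+/+ replicates bc201 and bc202 and *Fezf2*-/- replicates bc205 and bc206. Litter m2 gave *Fezf2*+/+ replicate bc203 and *Fezf2*-/-; *Fezf2-EnR* replicate bc209, and litter m3 gave *Fezf2*-/- replicates bc204 and bc207 and *Fezf2*-/-; *Fezf2-EnR* replicate bc208.

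Serotonin, dopamine, noradrenaline and acetylcholine reach the cortex mainly along axons of neurons whose cell bodies lie outside it, and oxytocin and vasopressin are made in the hypothalamus. Most of their receptors are G protein-coupled. Receptors that couple to Gs raise cyclic AMP, those that couple to Gi or Go lower it and open potassium channels, and those that couple to Gq activate phospholipase C. The nicotinic receptors and the 5-HT3 receptor are cation channels assembled from several subunits.

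Values are counts that the authors divided by a size factor for each library, called normalized counts below. The libraries held 18716575 to 25127623 reads assigned to genes. *Fezf2* itself, the check of the labels, was at 979 to 1232 normalized counts in *Fezf2*+/+, at 193 to 242 in *Fezf2*-/- and at 907 to 1001 in *Fezf2*-/-; *Fezf2-EnR*, where transcripts of the transgene and of the knock-in allele are counted together. All 8 markers of cortical glutamatergic neurons were detected, with summed levels of 52550 to 64315 over the 9 libraries. Of 13 markers of striatal projection neurons, 9 had their highest levels in replicates bc204 and bc208, so results were also computed without this pair. *Fezf2*+/+ replicate bc201 and both *Fezf2*-/-; *Fezf2-EnR* libraries had high *Xist* and little or no Y-linked RNA, whereas the other 6 libraries expressed Y-linked genes. Each log2 difference below is a fold change fitted by limma to log2(normalized count + 1). The fit covered 16197 genes whose mean over all libraries was 10 or more, and a gene was called when its Benjamini-Hochberg adjusted p fell below 0.05. Of the 45 receptor genes, 29 passed this minimum. In whole-cortex RNA, fewer cells of a type and less RNA per cell cannot be told apart.

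To describe the newborn cortex first, levels were compared between receptors per kb of annotated exon in the 3 *Fezf2*+/+ libraries. Subunits of the alpha4 beta2 nicotinic receptor, the main high-affinity nicotinic receptor of the brain, stood at the top. *Chrnb2* was at 233 ± 3.79 normalized counts per kb (SD, n = 3) and *Chrna4* at 160 ± 7.82, and their ranges did not overlap. *Adar*, on the opposite strand, overlaps an exon of *Chrnb2* and was at 2090 to 2885 normalized counts over the 9 libraries. Reads in this overlap cannot be told apart, because the use of strand in counting is not given in the sources used here. *Chrm1*, the M1 muscarinic receptor that couples to Gq in cortical pyramidal neurons, followed at 128 ± 27.2, and its range of 105 to 158 overlapped that of *Chrna4* at 151 to 166. The next group, from *Chrna7* at 71.1 to *Chrm3* at 50.1 per kb, also held *Htr3a*, *Chrna5*, *Htr2a*, *Adra2a* and *Adra2c*, and each neighbouring pair in this order had overlapping ranges. The order depends on the length used, since per kb of the longest transcript *Chrna7* was at 114, *Chrna5* at 82.8 and *Chrm3* at 72.3, with *Htr3a* at 70.1.

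**Figure D1:**
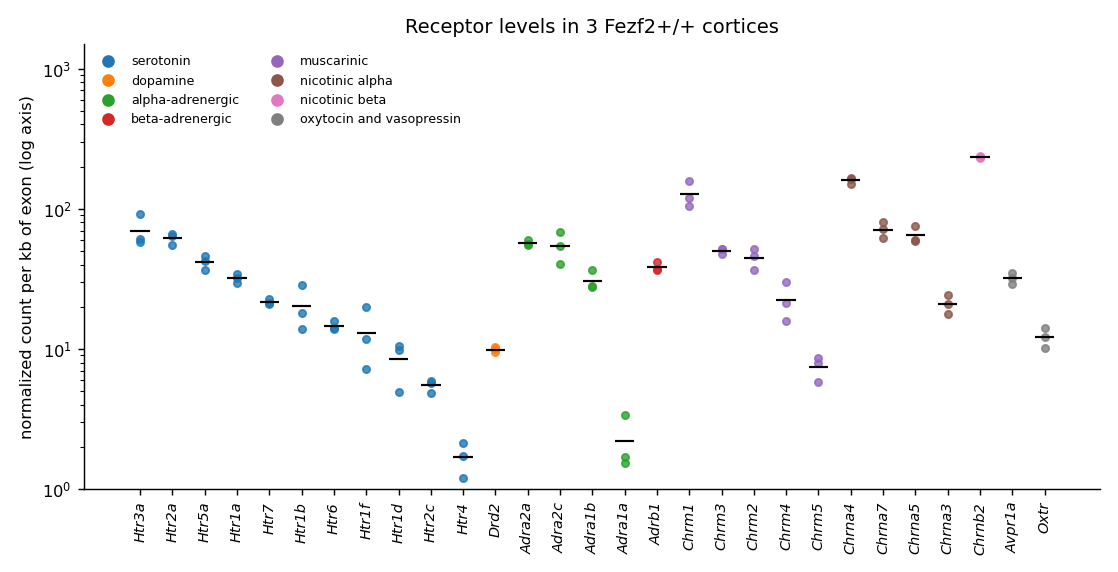
Normalized counts per kb of exon (log axis) of the 29 tested receptor genes, ordered by family. Each point is 1 of 3 *Fezf2*+/+ libraries and each bar their mean. *Chrnb2*, *Chrna4* and *Chrm1* are the top 3, with means of 128 to 233 per kb, and *Htr4*, at 1.69 per kb, is the lowest.

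The highest member of each remaining family was at a lower level per kb. *Htr3a*, the 5-HT3 channel subunit known from caudal interneurons, led the serotonin receptors at 70.0 ± 18.4 normalized counts per kb, and its range overlapped that of *Htr2a* at 61.8 ± 5.87. *Adra2a*, the Gi-coupled alpha2A receptor, was at 57.3 ± 2.42, and *Adrb1*, the Gs-coupled beta1 receptor, at 38.4 ± 2.65. *Avpr1a*, the Gq-coupled V1a vasopressin receptor, was at 32.2 ± 2.99, above *Oxtr* at 12.1 ± 1.99 with no overlap between the libraries. *Drd2*, the Gi-coupled D2 dopamine receptor, was the one dopamine receptor to pass the minimum and was at 9.90 ± 0.39.

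Transcripts of the enzymes that make acetylcholine and the catecholamines were scarce over the 9 libraries. *Chat*, which makes acetylcholine, was at 0 in 7 of the 9 libraries and reached 2.01, *Th*, which makes the catecholamine precursor, was at 1.05 to 9.04, and *Dbh*, which makes noradrenaline, was at 0 to 7.48. The enzymes of serotonin synthesis were counted in every library, with *Tph1* at 20.9 to 56.5, *Tph2* at 7.36 to 21.9 and *Ddc*, which also serves the catecholamines, at 10.9 to 29.1.

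The first comparison asked how the loss of *Fezf2* altered the receptor genes. Of the 29 tested members, 4 were called between *Fezf2*-/- and *Fezf2*+/+ cortices (13.8%), against 0.858% of all genes tested. They were the oxytocin receptor *Oxtr*, the muscarinic receptor *Chrm2* and the serotonin receptors *Htr1a* and *Htr6*, and all 4 were higher in *Fezf2*-/- cortices, where 0.512% of all genes were called higher. Fitted log2 differences were positive for 24 of the 29 members, with a median of 0.32, whereas 50% of all genes had a positive value. At an unadjusted p under 0.05, 10 of the 29 members passed, 9 of them higher, against 10.8% of all genes. The libraries of these genotypes did not overlap for 11 of the 29 members (37.9%), against 13.0% of all genes. edgeR on the recovered reads called the same 4 members and DESeq2 called these and *Htr3a*, against 0.877% and 1.94% of all genes. All 4 *Fezf2*-/- libraries expressed Y-linked genes, as did *Fezf2*+/+ replicates bc202 and bc203. Without *Fezf2*+/+ replicate bc201, which had high *Xist*, limma called 1 member, *Htr3a*, against 0.407% of all genes. In that fit the log2 differences were 2.13 for *Oxtr*, 0.83 for *Chrm2*, 0.89 for *Htr1a* and 0.88 for *Htr6*, with limma adjusted p of 0.0650, 0.0688, 0.168 and 0.191.

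**Figure D2:**
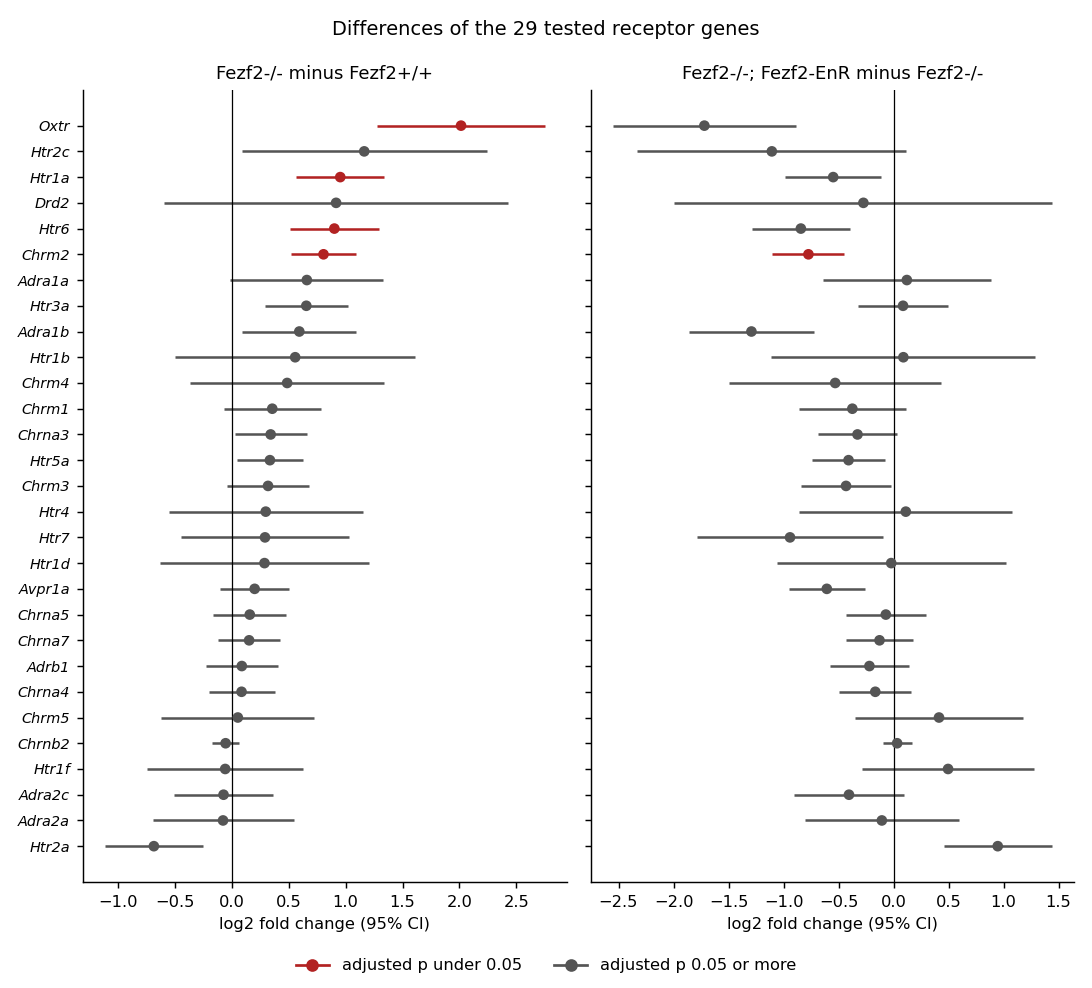
Fitted log2 fold changes (points) with 95% confidence intervals (lines) of the 29 tested receptor genes, for *Fezf2*-/- minus *Fezf2*+/+ on the left and *Fezf2*-/-; *Fezf2-EnR* minus *Fezf2*-/- on the right. Red marks an adjusted p under 0.05, which 4 genes reached on the left, all higher, and *Chrm2* alone on the right. Both panels use the same 4 *Fezf2*-/- libraries, so their values are not independent.

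*Oxtr* had the largest fold change of the tested members. It encodes the oxytocin receptor, which couples to Gq, and lies at chr6:112473683-112489943 (GRCm38, minus strand). Its normalized counts were 67.6, 57.9 and 48.5 in the *Fezf2*+/+ replicates bc201, bc202 and bc203. In *Fezf2*-/- replicates bc204 to bc207 they were 195, 228, 207 and 332. Every *Fezf2*-/- library was above every *Fezf2*+/+ library, and replicate bc207 was the highest of all. The log2 difference was 2.01 (SE 0.33, limma adjusted p = 0.0200), and an exact two-sided permutation test over the 35 splits gave p = 0.0286, the smallest it can give for 3 against 4 libraries. Within litter m1, the 2 *Fezf2*-/- libraries exceeded both *Fezf2*+/+ libraries by 1.78 on the log2 scale. Leaving out 1 library at a time kept the call in 4 of 9 fits, and the limma adjusted p reached 0.0973. It was lost without *Fezf2*+/+ replicate bc201, bc202 or bc203 or *Fezf2*-/- replicate bc205 or bc207, with values of 1.85 to 2.13 over these fits.

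*Chrm2* encodes the M2 muscarinic receptor, which couples to Gi and is known as an autoreceptor on cholinergic axons, and lies at chr6:36388084-36528414 (GRCm38, plus strand). It was at 279.6, 223 and 311 normalized counts in *Fezf2*+/+ and at 441, 404, 516 and 532 in *Fezf2*-/-. No library of one genotype reached the range of the other. The log2 difference was 0.81 (SE 0.13, limma adjusted p = 0.0181), the exact permutation p was 0.0286, and the difference within litter m1 was 0.87. Without *Fezf2*+/+ replicate bc201 or bc202 or *Fezf2*-/- replicate bc206 or bc207 the call was lost, with a limma adjusted p of up to 0.0787. A gene on the opposite strand, 9330158H04Rik, overlaps an exon of *Chrm2* and was counted at 9.47 to 29.1, and reads of this pair cannot be told apart because the use of strand in counting is not given in the sources used here.

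*Htr1a* encodes the 5-HT1A receptor, a Gi-coupled receptor of pyramidal neurons and of serotonergic cell bodies, and lies at chr13:105443639-105448122 (GRCm38, plus strand). Its normalized counts were 132, 144 and 154 in *Fezf2*+/+. They were 293, 276, 204 and 359.6 in *Fezf2*-/- replicates bc204 to bc207. The groups did not overlap, although replicate bc206 was nearer to the *Fezf2*+/+ libraries than the other 3 were. The log2 difference was 0.95 (SE 0.17, limma adjusted p = 0.0318), the exact permutation p was 0.0571, and the difference within litter m1 was 0.78 (limma adjusted p = 0.0556). The call was kept in 3 of the 9 fits without 1 library and in none of the 3 that left out a *Fezf2*+/+ replicate (bc201, bc202 or bc203), and it was also lost without *Fezf2*-/- replicate bc204, bc205 or bc207, with a limma adjusted p of up to 0.168.

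*Htr6* encodes the 5-HT6 receptor, which couples to Gs, and lies at chr4:139061108-139075570 (GRCm38, minus strand). It was at 33.0, 36.8 and 32.7 normalized counts in *Fezf2*+/+ and at 76.3, 55.6, 55.2 and 73.9 in *Fezf2*-/-. All 4 *Fezf2*-/- libraries were higher, and the pair from litter m3 was above the pair from litter m1. The log2 difference was 0.90 (SE 0.18, limma adjusted p = 0.0484) and the exact permutation p was 0.0286. The call was lost without any 1 of the 7 libraries compared, with a limma adjusted p of up to 0.191. It was also lost with litter as a block, at 0.70 (limma adjusted p = 0.119), and in litter m1 alone, at 0.65 (limma adjusted p = 0.237).

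**Figure D3:**
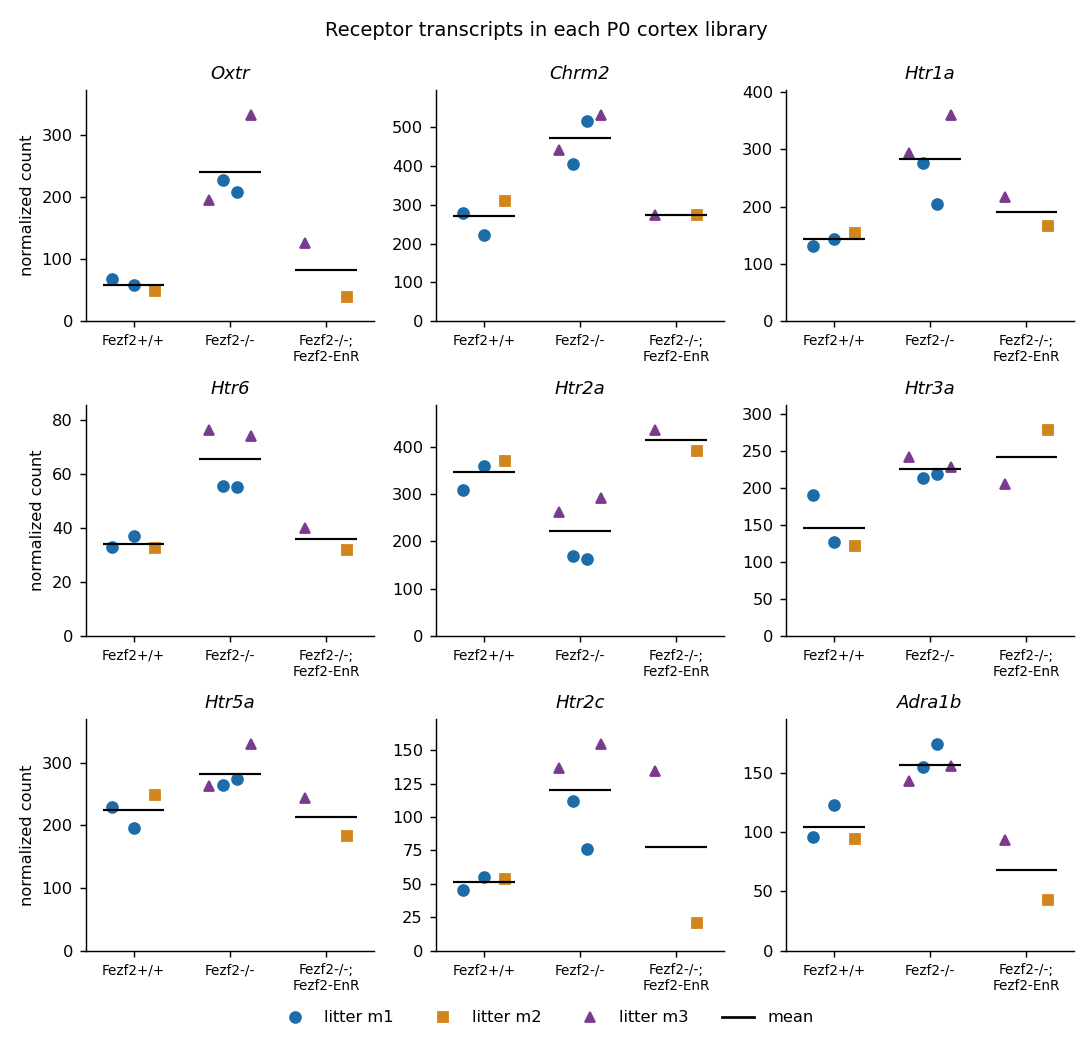
Normalized counts of 9 receptor genes in each library, by genotype, with the mean as a bar and the litter as colour and shape. *Oxtr*, *Chrm2*, *Htr1a* and *Htr6* are higher in all 4 *Fezf2*-/- libraries than in the 3 *Fezf2*+/+ libraries, and *Htr2a* is lower in all 4. The *Fezf2*-/-; *Fezf2-EnR* libraries bc208 (litter m3) and bc209 (litter m2) lie far apart for *Oxtr*, *Htr2c* and *Adra1b*.

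The bases just upstream of the 4 called genes are shown because these genes moved in the same direction. They were taken from RefSeq (GRCm38.p6), which had a promoter entry for 33 of the 45 members, from a window of 250 bases before each start, less any part inside a protein-coding exon. The windows are chr6:112489944-112490075 (minus strand) for *Oxtr*, chr6:36387834-36388083 (plus strand) for *Chrm2*, chr13:105443443-105443638 (plus strand) for *Htr1a* and chr4:139075571-139075820 (minus strand) for *Htr6*. Capitals mark GC boxes (GGGCGG or CCGCCC) and E-boxes (CANNTG), searched on both strands.
Oxtr: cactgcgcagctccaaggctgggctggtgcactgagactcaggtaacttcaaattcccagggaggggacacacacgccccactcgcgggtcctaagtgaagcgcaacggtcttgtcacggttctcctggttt
Chrm2: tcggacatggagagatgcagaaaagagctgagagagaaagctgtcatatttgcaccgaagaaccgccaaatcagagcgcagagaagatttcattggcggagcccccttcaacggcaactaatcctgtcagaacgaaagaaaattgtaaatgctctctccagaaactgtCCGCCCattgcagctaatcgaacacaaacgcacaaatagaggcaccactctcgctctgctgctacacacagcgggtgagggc
Htr1a: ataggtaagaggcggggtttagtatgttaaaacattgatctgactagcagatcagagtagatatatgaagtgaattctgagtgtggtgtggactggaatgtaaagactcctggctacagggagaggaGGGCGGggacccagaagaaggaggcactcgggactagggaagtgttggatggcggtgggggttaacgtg
Htr6: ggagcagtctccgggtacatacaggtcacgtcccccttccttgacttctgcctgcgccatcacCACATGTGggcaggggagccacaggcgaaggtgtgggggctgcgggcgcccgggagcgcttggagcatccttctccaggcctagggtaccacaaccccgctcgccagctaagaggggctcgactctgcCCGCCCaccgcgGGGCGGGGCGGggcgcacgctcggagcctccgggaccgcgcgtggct

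GC content was 59.1% in the *Oxtr* window, 50% in those of *Chrm2* and *Htr1a* and 70.8% in that of *Htr6*, with 7, 12, 5 and 23 CpG dinucleotides. *Htr6* held 3 GC boxes, 2 of which share a base, and 2 E-boxes that overlap, *Chrm2* and *Htr1a* held 1 GC box each and no E-box, and *Oxtr* held neither. Among 32851 promoters cut to the same lengths, a GC box was present in 32.7% at 250 bases, 23.9% at 196 bases and 14.3% at 132 bases, and an E-box in 66.2%, 58.4% and 44.9%. None of the 4 windows held TATAAA, the cyclic AMP response element TGACGTCA or the homeodomain core TAATTA. At 250, 196 and 132 bases, 12.4%, 9.0% and 6.6% of promoters held TATAAA on either strand. TGACGTCA was in 1.5%, 0.8% and 0.3% and TAATTA in 4.8%, 4.1% and 2.9%, so most promoters lack each of them. These matches describe the letters in the windows only.

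Another 5 serotonin and adrenergic receptors did not overlap between *Fezf2*-/- and *Fezf2*+/+ libraries at an unadjusted p under 0.05, without passing the adjusted threshold. *Htr2a*, the Gq-coupled 5-HT2A receptor of pyramidal neurons (chr14:74640840-74709494, GRCm38), was the one with the opposite direction. It was at 309, 359.8 and 371 normalized counts in *Fezf2*+/+ and at 262, 170.0, 163 and 292 in *Fezf2*-/-. The lowest values came from litter m1, replicates bc205 and bc206. The log2 difference was -0.69 (SE 0.20, limma adjusted p = 0.201). With litter as a block it was called, at -0.91 (limma adjusted p = 0.00443), and the libraries of litter m1 gave -1.0 (limma adjusted p = 0.00377).

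*Htr3a* (chr9:48899213-48911099, GRCm38) was at 190.1, 126 and 121 normalized counts in *Fezf2*+/+ and at 241, 214, 219 and 228 in *Fezf2*-/-. Replicate bc201 of *Fezf2*+/+ lay close to the *Fezf2*-/- libraries, and the log2 difference was 0.65 (SE 0.16, limma adjusted p = 0.137). Without replicate bc201 the limma adjusted p was 0.0358. Markers of caudal interneurons, among which *Htr3a* is known, summed to 10612 to 11129 in *Fezf2*+/+ and to 11681 to 13054 in *Fezf2*-/-. Of these 8 markers, 7 had a higher mean in *Fezf2*-/- and 0 were called by limma, and their part in the *Htr3a* values was not tested.

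*Htr5a*, a Gi-coupled serotonin receptor (chr5:27842149-27855088, GRCm38), was at 229, 196 and 248 normalized counts in *Fezf2*+/+ and at 263, 264, 274 and 329.8 in *Fezf2*-/-, with a log2 difference of 0.33 (SE 0.13, limma adjusted p = 0.388). *Adra1b*, the Gq-coupled alpha1B adrenergic receptor (chr11:43774606-43901210, GRCm38), was at 95.5, 123 and 93.8 in *Fezf2*+/+ and at 143, 155, 174 and 155 in *Fezf2*-/-, with a log2 difference of 0.59 (SE 0.23, limma adjusted p = 0.369) that was 0.36 with litter as a block (limma adjusted p = 0.586). In both genes the lowest *Fezf2*-/- library was above the highest *Fezf2*+/+ library by a narrow margin.

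*Htr2c*, the Gq-coupled 5-HT2C receptor (chrX:146962513-147197277, GRCm38), was at 45.6, 54.7 and 53.8 normalized counts in *Fezf2*+/+ and at 137, 112, 76.1 and 154 in *Fezf2*-/-. Its log2 difference was 1.16 with a wide 95% interval of 0.08 to 2.24 (limma adjusted p = 0.422), and in the *Fezf2*-/-; *Fezf2-EnR* libraries it was at 134 and 20.8. The limma adjusted p was 0.0419 in a fit without *Fezf2*-/-; *Fezf2-EnR* replicate bc209 and 0.0456 in one without replicate bc208, which enter this comparison through the shared spread alone. With litter as a block the log2 difference was 0.41 (limma adjusted p = 0.751). The 8 markers of choroid plexus, a tissue in which *Htr2c* is abundant, were near the floor, with summed levels of 15 to 43 and *Ttr* at or below 3.27 in every library.

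Counts by family are given as a description, beside the 0.858% called and the 13.0% without overlap among all genes, and no test compared the families. Among the serotonin receptors 2 of 11 tested members were called and 6 did not overlap, 5 of them higher. Among the muscarinic receptors 1 of 5 was called, and all 5 had positive log2 differences of 0.05 to 0.81. The 4 tested nicotinic alpha subunits differed by 0.08 to 0.34 and 0 were called by limma, although *Chrna3*, a subunit named here after its values were seen, had an unadjusted p under 0.05 with overlapping libraries. *Chrnb2* was at 1985, 1921 and 1952 normalized counts in *Fezf2*+/+ and 1849.9, 1876, 1871 and 1918 in *Fezf2*-/-, without overlap by a narrow margin. Its log2 difference of -0.06 had a 95% interval of -0.17 to 0.06, and reads where *Chrnb2* and *Adar* overlap cannot be told apart. *Chrna4* was at 760.4, 825 and 832 in *Fezf2*+/+ and at 788, 844, 757 and 1054 in *Fezf2*-/-, with a log2 difference of 0.08 and an interval of -0.21 to 0.38.

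The remaining family leaders overlapped between these genotypes, as *Chrna4* did. *Chrm1* was at 684, 779 and 1026 normalized counts in *Fezf2*+/+ and at 1089, 1009, 813 and 1341 in *Fezf2*-/-, a log2 difference of 0.35 (SE 0.19, limma adjusted p = 0.565). *Adra2a* was at 269, 290.4 and 272 against 306, 275, 161 and 349.7, and its log2 difference of -0.08 had an interval of -0.70 to 0.54. *Adrb1* was at 124, 125 and 140.2 against 152, 134, 119.9 and 148, with a log2 difference of 0.09 and an interval of -0.23 to 0.40. *Avpr1a* (chr10:122448499-122453452, GRCm38) was at 86.2, 77.8 and 93.8 against 93.4, 99.2, 95.9 and 106, with a log2 difference of 0.20 (limma adjusted p = 0.663), so that the *Oxtr* and *Avpr1a* 95% intervals, 1.28 to 2.75 and -0.11 to 0.51, did not meet.

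*Drd2* and *Htr1b*, the Gi-coupled 5-HT1B receptor named here after its values were seen, varied widely among libraries of *Fezf2*-/- and of *Fezf2*-/-; *Fezf2-EnR*. *Drd2* was at 26.2, 24.2 and 25.3 normalized counts in *Fezf2*+/+, at 174, 41.4, 29.2 and 25.8 in *Fezf2*-/- and at 102 and 15.3 in *Fezf2*-/-; *Fezf2-EnR*. *Htr1b* was at 65.9, 85.2 and 135 in *Fezf2*+/+, at 274, 110.1, 70.9 and 153 in *Fezf2*-/- and at 259.9 and 78.7 in *Fezf2*-/-; *Fezf2-EnR*. In both genes replicate bc204 of *Fezf2*-/- and replicate bc208 of *Fezf2*-/-; *Fezf2-EnR*, both from litter m3, were the highest libraries. These are the highest libraries for 9 of the 13 striatal markers, including *Adora2a*, at 368 and 189 there and at 48.1 to 111 elsewhere, and *Penk*, at 337 and 228 there and at 43.7 to 86.1 elsewhere. None of the 13 markers was at 0 in all libraries, their summed level was 10359 to 10720 in *Fezf2*+/+, 9342 to 13502 in *Fezf2*-/- and 10043 to 11735 in *Fezf2*-/-; *Fezf2-EnR*, and the part of striatal RNA in these values was not tested. Of the 29 tested receptors, 4 had this pair as their highest libraries, against 3.83% of all genes tested. In *Fezf2*-/- against *Fezf2*+/+ the log2 difference of *Drd2* was 0.92, with an interval of -0.60 to 2.43. That of *Htr1b* was 0.56, with an interval of -0.50 to 1.61. Without replicates bc204 and bc208 these differences were 0.31 and 0.22. D430036J16Rik, on the opposite strand to *Htr1b* and overlapping its exon, was at 3.16 to 45.2, so this pair of genes cannot be told apart without strand.

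**Figure D4:**
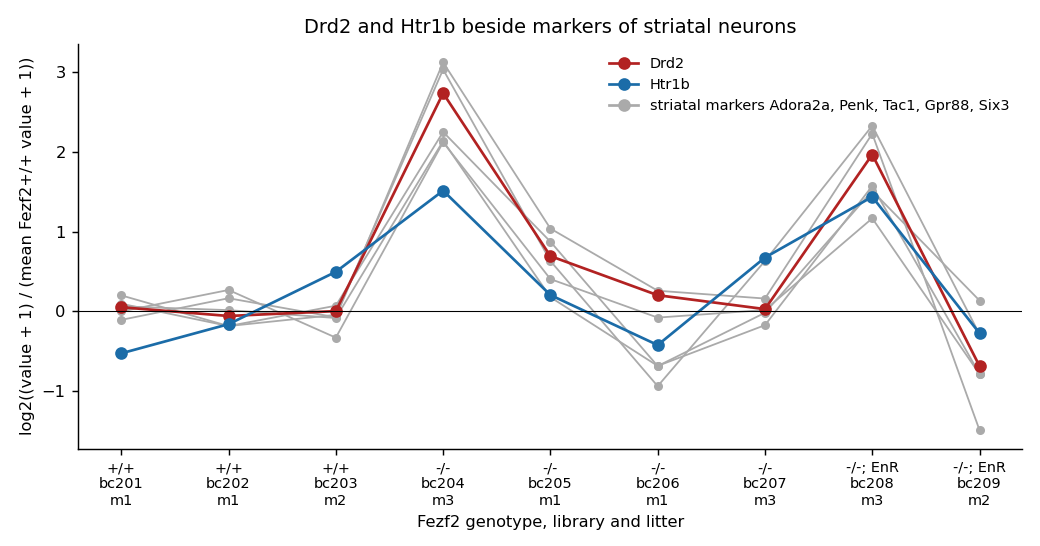
*Drd2*, *Htr1b* and 5 striatal markers in each of the 9 libraries, as log2 of (value + 1) over (mean *Fezf2*+/+ value + 1), where 0 is the *Fezf2*+/+ mean. The red, blue and grey lines all peak at replicate bc204 (*Fezf2*-/-) and replicate bc208 (*Fezf2*-/-; *Fezf2-EnR*).

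For 8 lists of cell type markers the summed levels did not overlap between *Fezf2*-/- and *Fezf2*+/+ cortices, the comparison in which 4 receptors were called. The 9 markers of layer 6 corticothalamic neurons summed to 20657 to 21466 in *Fezf2*+/+ and to 13635 to 15267 in *Fezf2*-/-, and 5 of them were called lower. The 6 hippocampal markers, *Prox1* of which is also on the caudal interneuron list, summed to 3670 to 3973 in *Fezf2*+/+, 4921 to 6973 in *Fezf2*-/- and 5852 to 6667 in *Fezf2*-/-; *Fezf2-EnR*, and all 6 had a higher mean in *Fezf2*-/- with 0 called by limma. Among them *Nrp2*, singled out after its values were seen, was at 437 to 809 in *Fezf2*+/+, at 1269 to 2786 in *Fezf2*-/- and at 2304 and 414 in replicates bc208 and bc209. The 8 medial interneuron markers summed to 10606 to 11274 against 12432 to 14771, and the 8 radial glia markers to 13422 to 14014 against 14357 to 17023, each with 0 called by limma. The 7 subplate markers summed to 3266 to 3598 against 3896 to 5367, although *Nxph4*, *Cplx3* and *Ctgf* were called lower in *Fezf2*-/- and *Nr4a2* alone was called higher. The 6 thalamic markers summed to 2031 to 2198 against 2222 to 2705, with *Slc17a6* called higher. The 5 markers of oligodendrocyte precursors summed to 10643 to 11173 against 11668 to 11974, and all 5 had a higher mean with 0 called by limma. The sums of the Cajal-Retzius, meningeal, endothelial, pericyte, microglial and red blood cell lists overlapped, and of their 40 tested genes 1 was called, the meningeal marker *Lum*, which was lower. Those of the 8 cortical glutamatergic markers overlapped as well, and 1 of these, *Emx1*, was called lower in *Fezf2*-/-. Its log2 difference was -0.44 (SE 0.08, limma adjusted p = 0.0296), and the call was kept in 2 of 9 fits without 1 library. No marker of these lists was at 0 in all libraries, and the part of these cells in the receptor values was not tested.

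The second comparison asked how the receptors stood once the repressor fusion was present on the *Fezf2*-/- background. Of the 29 members, 1 was called between *Fezf2*-/-; *Fezf2-EnR* and *Fezf2*-/- cortices (3.45%), against 0.766% of all genes. It was *Chrm2*, which fell, and 0.432% of all genes were called lower. At an unadjusted p under 0.05, 10 members passed, 9 of them lower, against 16.9% of all genes, and 9 did not overlap (31.0%), against 24.6% of all genes. Fitted log2 differences were positive for 8 of the 29, against 50.5% of all genes, with a median of -0.27. edgeR on the recovered reads called 1 member and DESeq2 called 4 (*Adra1b*, *Chrm2*, *Htr2a* and *Oxtr*), against 0.704% and 2.78% of all genes. The 4 *Fezf2*-/- libraries stand in both comparisons, so a gene that is high in them rises in the first and falls in the second by that fact alone. With 2 libraries in this group, no exact permutation test could reach 0.05, and the tests rest on a spread shared by all 3 genotypes. Both *Fezf2*-/-; *Fezf2-EnR* libraries had high *Xist* and no counts of *Ddx3y* or *Eif2s3y*, and all 4 *Fezf2*-/- libraries expressed both Y-linked genes, so the transgene and sex cannot be told apart in any value of this comparison, the *Chrm2* call included.

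*Chrm2* was at 275 and 274 normalized counts in *Fezf2*-/-; *Fezf2-EnR* replicates bc208 and bc209. Both values lay below all 4 *Fezf2*-/- libraries and within the *Fezf2*+/+ range of 223 to 311. The log2 difference against *Fezf2*-/- was -0.77 (SE 0.15, limma adjusted p = 0.0437), and within litter m3 replicate bc208 was lower than its 2 *Fezf2*-/- littermates by a log2 difference of -0.81. The call was kept in 3 of the 9 fits without 1 library. It was lost without *Fezf2*+/+ replicate bc201, any *Fezf2*-/- replicate (bc204, bc205, bc206 or bc207) or *Fezf2*-/-; *Fezf2-EnR* replicate bc209, with a limma adjusted p of up to 0.382.

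*Oxtr* differed between the 2 *Fezf2*-/-; *Fezf2-EnR* libraries, at 126 in replicate bc208 and 39.3 in replicate bc209. Replicate bc208 was above all *Fezf2*+/+ libraries and below all *Fezf2*-/- libraries, whereas replicate bc209 was below the *Fezf2*+/+ libraries. The log2 difference was -1.72 (SE 0.38, limma adjusted p = 0.0772), it was -1.0 within litter m3, and without replicate bc208 it was -2.55 (limma adjusted p = 0.00231) and without replicate bc209 -0.89 (limma adjusted p = 0.609). *Htr6*, at 39.8 and 31.7, was below all 4 *Fezf2*-/- libraries, with a log2 difference of -0.84 (SE 0.20, limma adjusted p = 0.0996). *Htr1a*, at 216 and 166, overlapped the *Fezf2*-/- libraries, with a log2 difference of -0.55 (SE 0.20, limma adjusted p = 0.213).

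*Adra1b* and *Avpr1a* were also lower than in *Fezf2*-/- in both libraries, and here both lay below the *Fezf2*+/+ libraries as well. *Adra1b* was at 93.6 and 42.6, with a log2 difference of -1.29 against *Fezf2*-/- (SE 0.26, limma adjusted p = 0.0540) and of -0.70 against *Fezf2*+/+ (SE 0.27, limma adjusted p = 0.202). Its value in replicate bc208 was nearly level with the lowest *Fezf2*+/+ library, at 93.8. Without replicate bc209 the log2 difference against *Fezf2*+/+ was -0.14. *Avpr1a* was at 55.8 and 74.3, with log2 differences of -0.61 (SE 0.16, limma adjusted p = 0.119) and -0.41 (SE 0.17, limma adjusted p = 0.219). *Htr2a* stood on the other side. It was at 437 and 392, above every library of the other 2 genotypes, with a log2 difference of 0.95 against *Fezf2*-/- (SE 0.22, limma adjusted p = 0.0944) and of 0.26 against *Fezf2*+/+ (SE 0.23, limma adjusted p = 0.571). With litter as a block, *Htr2a* was called against *Fezf2*-/- (0.80, limma adjusted p = 0.0275).

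For the remaining family leaders the *Fezf2*-/-; *Fezf2-EnR* libraries overlapped those of *Fezf2*-/-. *Htr3a* was at 205 and 279, *Chrnb2* at 1844 and 2001, *Chrna4* at 897 and 645, *Chrm1* at 997 and 652, *Adra2a* at 356 and 166, *Adrb1* at 140.4 and 99.4 and *Drd2* at 102 and 15.3 in replicates bc208 and bc209. *Htr5a*, at 244 and 184, was below the *Fezf2*-/- libraries, with a log2 difference of -0.41 (SE 0.15, limma adjusted p = 0.22). The channel subunit *Chrna3*, at 118 and 103, was also below them, with a log2 difference of -0.33 (SE 0.16, limma adjusted p = 0.33). The difference between the 2 libraries was shared by most receptors, since 24 of the 29 tested members were higher in replicate bc208 than in replicate bc209, against 48.7% of all genes. Replicate bc209 was the lowest of the 9 libraries for 13 of the 29 members, against 21.3% of all genes. Leaving out replicate bc208 raised the number of members called against *Fezf2*-/- from 1 to 7, adding *Adra1b*, *Chrm3*, *Htr2c*, *Htr6*, *Htr7* and *Oxtr*, all lower, and the share of all genes called rose to 6.72%. Without replicate bc209 limma called 0 members, against 0.130% of all genes. *Fezf2*-/- replicate bc207 was the highest of the 9 libraries for 13 of the 29, against 13.0% of all genes.

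Between *Fezf2*-/-; *Fezf2-EnR* and *Fezf2*+/+, limma called 0 of the 29 members, against 0.117% of all genes. At an unadjusted p under 0.05 it passed 3, namely *Htr3a* (0.74), *Adra1b* (-0.70) and *Avpr1a* (-0.41), against 19.3% of all genes. edgeR on the recovered reads called 0 and DESeq2 called 1, *Htr3a*, against 0.0926% and 3.96% of all genes. The libraries did not overlap for 7 members (24.1%), against 34.6% of all genes. The 95% intervals of the 4 receptors that were called in *Fezf2*-/- leave room for differences in either direction, from -0.58 to 1.17 for *Oxtr*, -0.31 to 0.38 for *Chrm2*, -0.06 to 0.86 for *Htr1a* and -0.41 to 0.53 for *Htr6*. Within litter m2, 7 of the 29 members were higher in *Fezf2*-/-; *Fezf2-EnR* replicate bc209 than in *Fezf2*+/+ replicate bc203. This sets 1 library against 1, and the share of all genes was not computed. Replicate bc209 had high *Xist* and replicate bc203 expressed Y-linked genes, so genotype and sex cannot be told apart in this pair. In the whole comparison, *Fezf2*+/+ replicates bc202 and bc203 expressed Y-linked genes and no *Fezf2*-/-; *Fezf2-EnR* library did.

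The 16 members under the minimum included *Htr3b*, *Htr5b*, *Drd3*, *Drd4*, *Drd5*, *Adra1d*, *Adra2b*, *Adrb3*, *Chrna1*, *Chrna2*, *Chrna6*, *Chrnb1*, *Chrnb3*, *Chrnb4* and *Avpr1b*, and the means of the 16 were 0.45 to 9.41 normalized counts. Of the 16, 8 were at 0 in at least 1 library, and *Avpr1b*, the pituitary vasopressin receptor, was at 0 in 7 of 9. Counts this low could not show moderate differences. When limma was run with no minimum, 0 of the 16 were called between *Fezf2*-/- and *Fezf2*+/+ and 0 between *Fezf2*-/-; *Fezf2-EnR* and *Fezf2*-/-. *Adra1d*, the alpha1D adrenergic receptor, singled out after its values were seen, was the one without overlap between *Fezf2*+/+ and *Fezf2*-/-. It was at 2.53, 1.05 and 6.32 against 12.1, 15.3, 10.4 and 15.8, with a log2 difference of 1.92 (SE 0.48, limma adjusted p = 0.147) and an unadjusted p of 0.00182. Gm14285, on the opposite strand and overlapping an exon of *Adra1d*, was at 0 to 3.32, so this pair cannot be told apart without strand.

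Genes that act with these receptors were taken from 6 lists of ligand synthesis, transport and breakdown, peptide processing, G proteins, effectors, desensitization and nicotinic accessory proteins. Of 78 tested genes on these lists, 3 were called between *Fezf2*-/- and *Fezf2*+/+, 3 between *Fezf2*-/-; *Fezf2-EnR* and *Fezf2*-/-, and 0 between *Fezf2*-/-; *Fezf2-EnR* and *Fezf2*+/+ by limma, where 17 had an unadjusted p under 0.05, edgeR called 0 and DESeq2 called 6. The shares of all genes called were 0.858%, 0.766% and 0.117% in these comparisons, and in the last 19.3% had an unadjusted p under 0.05 and edgeR and DESeq2 called 0.0926% and 3.96%. On the desensitization list 2 of 21 were called higher in *Fezf2*-/-, on the effector list 1 of 17 was called lower, and on the other lists 0 were called in that comparison.

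*Rgs8*, which speeds the shut-off of Gi and Gq signals, was at 618, 650.2 and 597 normalized counts in *Fezf2*+/+ and at 2037, 1840.4, 2310.2 and 2274 in *Fezf2*-/-. In *Fezf2*-/-; *Fezf2-EnR* it was at 977 in replicate bc208 and at 447 in replicate bc209. The *Fezf2*-/- libraries stood above all others, with log2 differences of 1.76 against *Fezf2*+/+ (SE 0.20, limma adjusted p = 0.00196) and, for *Fezf2*-/-; *Fezf2-EnR* against *Fezf2*-/-, of -1.67 (SE 0.23, limma adjusted p = 0.00941), and both calls were kept in all 9 fits without 1 library. *Rgs16*, of the same family, rose by 0.79 (SE 0.11, limma adjusted p = 0.00716) and was lower by a log2 difference of -0.83 with the transgene (SE 0.13, limma adjusted p = 0.0189). Without *Fezf2*+/+ replicate bc201 the first of these calls was lost (limma adjusted p = 0.0504), and without *Fezf2*-/- replicate bc205 or *Fezf2*-/-; *Fezf2-EnR* replicate bc209 the second (limma adjusted p of up to 0.169). *Rgs16* was at 289.8, 325 and 268 in *Fezf2*+/+, 422, 532, 577 and 512 in *Fezf2*-/- and 285 and 286 normalized counts in *Fezf2*-/-; *Fezf2-EnR*.

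*Adcy1*, the calcium-stimulated adenylyl cyclase of developing cortex, fell by 0.33 on the log2 scale in *Fezf2*-/- (SE 0.06, limma adjusted p = 0.0288), from 25327, 26226 and 27577 normalized counts to 20134, 19949, 21726 and 22466, and was at 23613 and 23489 with the transgene. The libraries of the 3 genotypes did not overlap. The call was kept in 3 of the 9 fits without 1 library, and it was lost without any *Fezf2*+/+ replicate (bc201, bc202 or bc203) and without *Fezf2*-/- replicate bc204, bc205 or bc206, with an adjusted limma p of up to 0.158. It was also lost with litter as a block (limma adjusted p = 0.0961). *Ache*, the acetylcholinesterase that breaks down acetylcholine, was at 435, 493 and 455 in *Fezf2*+/+, 553, 548, 579 and 559 in *Fezf2*-/- and 368 and 227 in *Fezf2*-/-; *Fezf2-EnR*, and was lower in the last than in *Fezf2*-/- by a log2 difference of -0.95 (SE 0.15, limma adjusted p = 0.0251). That call was lost without *Fezf2*-/- replicate bc205, bc206 or bc207 or *Fezf2*-/-; *Fezf2-EnR* replicate bc209, with an adjusted limma p of up to 0.086. *Slc6a2*, *Oxt* and *Avp* were not analysed here.

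**Figure D5:**
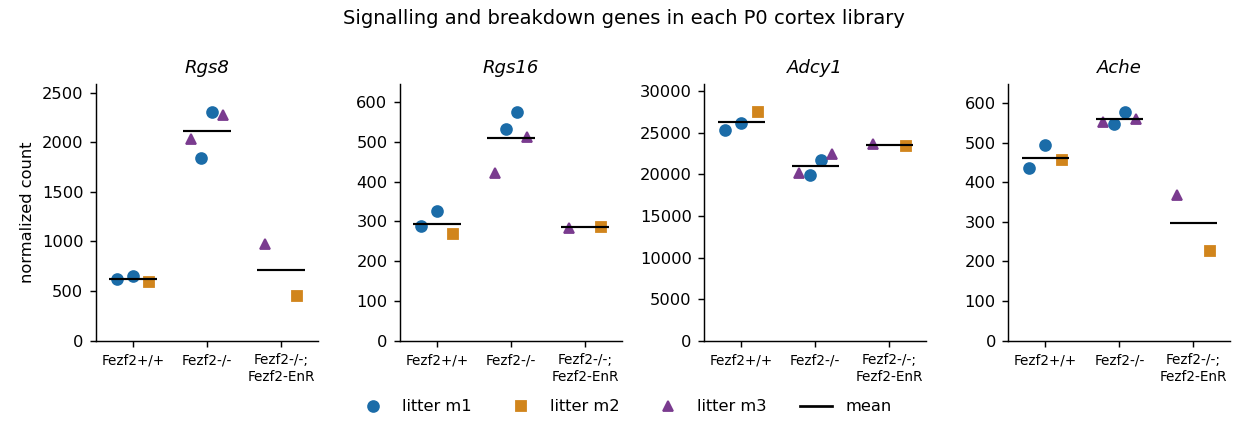
Normalized counts of *Rgs8*, *Rgs16*, *Adcy1* and *Ache* in each library, by genotype, with the mean as a bar and the litter as colour and shape. *Rgs8* is at 1840.4 to 2310.2 in *Fezf2*-/- and at or below 977 in every other library, and *Ache* is lowest in the 2 *Fezf2*-/-; *Fezf2-EnR* libraries.

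Without replicate bc204 of *Fezf2*-/- and replicate bc208 of *Fezf2*-/-; *Fezf2-EnR*, an alternative chosen after seeing the data, 1 of the 4 calls against *Fezf2*+/+ remained, where 0.796% of all genes were called. *Oxtr* kept a log2 difference of 2.10 (limma adjusted p = 0.00201) in that fit. *Chrm2* had 0.84 (limma adjusted p = 0.0501), *Htr1a* 0.93 (limma adjusted p = 0.0782) and *Htr6* 0.82 (limma adjusted p = 0.105). Their sizes changed by less than the standard errors given above, with 7 libraries in place of 9.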

How the data were processed

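Cortical RNA from each of 9 P0 mice was prepared as a poly(A) library and sequenced as paired ends. Per the labels, the submitters' processing used STAR, Bowtie, DESeq and the mm10 build. The counting tool, the annotation release and the use of strand are not given in the sources used here. The authors deposited a normalized signal per gene, that is, counts divided by a size factor for each library. Every value was a whole multiple of the value of 1 read (0.8306 to 1.0926, tolerance 0.1 reads), so whole reads were recovered and used for the count tests, and 1 normalized count is close to 1 read in each library.

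The main test was limma 3.58.1 (lmFit, eBayes with a trend, R 4.3.3) on log2(value + 1), with 1 coefficient per genotype, 9 libraries in 1 fit, no covariate and a minimum mean of 10. A count test had been considered but the table holds normalized values, so edgeR 4.0.16 and DESeq2 1.42.0 were alternatives. The others were pseudocounts of 0.1 and 10, no minimum or minimum means of 1 and 50, TMM and median-ratio scaling, the 2 groups alone, a litter block, the libraries of litter m1, leaving out single libraries, an unadjusted threshold and, added later, the removal of replicates bc204 and bc208. The tests were checked on simulated data with the same spread setting for every gene and no differences of litter or sex. This check does not cover receptors that varied widely within a genotype.

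The receptor genes and the gene lists were chosen with earlier results of these data known. Named with values in each library were the receptors called in any comparison, those with an unadjusted p under 0.05 and no overlap between *Fezf2*-/- and *Fezf2*+/+, and the highest per kb in each family. Receptors named only by level, by a call in an alternative fit or as under the minimum lie outside this rule. Other receptors singled out for their values are marked as chosen after these were seen. Levels per kb used the union of exons in GENCODE M21 (GRCm38), which matched all 45 members. P-values measure the spread between mice of a genotype. Marker lists of other cell types are given as summed levels, or as counts of called genes where the sums overlapped between *Fezf2*-/- and *Fezf2*+/+.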

Additional observations from a re-analysis of the deposited data

Results flagged for a closer look

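In 2 of the 30 genes examined in the 4 *Fezf2*-/- libraries, the 29 tested receptors and *Fezf2*, 1 library stood apart from the other 3 by Dixon's criterion for 4 values, which chance meets in about 1 of 20 groups. *Drd2* was at 173.75 normalized counts in replicate bc204, against 25.8 to 41.4 in the others, a gap of 0.894 of the range. *Htr5a* was at 329.75 in replicate bc207, against 263 to 274, a gap of 0.834 of the range.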

How the results depend on the processing

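The 427 alternative values of the named receptors, over 20 pairs of receptor and comparison, included 0 reversals, and 367 stayed on the same side of the adjusted threshold. These pairs had an unadjusted p under 0.05 in the main test, so few reversals could occur, and pairs that stayed uncalled are among the 367. *Htr6* was called in 8 of 21 alternatives in *Fezf2*-/- against *Fezf2*+/+. Outside these pairs signs did change. *Htr2c* in *Fezf2*-/-; *Fezf2-EnR* against *Fezf2*-/- ranged from -2.43 to 0.21 when 1 library was left out. Leaving out 1 library at a time gave 0 to 5 receptors called in *Fezf2*-/- against *Fezf2*+/+ (4 with all libraries, and 0 without *Fezf2*+/+ replicate bc202 or *Fezf2*-/- replicate bc207), 0 to 7 in *Fezf2*-/-; *Fezf2-EnR* against *Fezf2*-/- (1 with all) and 0 to 2 against *Fezf2*+/+ (0 with all). For the genes of the pathway lists the same ranges were 1 to 4, 1 to 15 and 0 to 7 (3, 3 and 0 with all). Without replicates bc204 and bc208, receptor calls in these 3 comparisons were 1, 5 and 1, and pathway calls in the second and the third were 13 and 5. The unadjusted threshold gave 10, 10 and 3 receptors and 14, 25 and 17 pathway genes. DESeq2 gave 4 and 1 receptors in the second and the third comparison and 8 and 6 pathway genes. In the second comparison, receptor calls were 2 without a minimum, 2 with litter as a block and 0 with the 2 groups alone. Of all genes, 131 of 24624, 88 of 16197 and 67 of 16197 were called in these fits. In the third, litter as a block gave 1 pathway gene, beside 32 of all 16197 genes. For the first comparison the other alternatives gave 3 to 5 receptors, beside 109 to 315 of all genes tested. Where a call was lost the cause was not tested, and a fit that left out a library also had fewer libraries. Per kb of the longest transcript in place of the exon union, *Chrnb2*, *Chrna4* and *Adrb1* in *Fezf2*+/+ were at 305, 176 and 44.0, and *Chrna7* was at 114. Replicate names are not shared between genotypes, so litter was the only block.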
